A study of Mus musculus with 12 samples.

Results

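Both heterozygous genotypes, Crebbp+/- and Ep300+/-, were taken as one side and set against wild type in primary mouse bone marrow stroma, the cell layer that attaches and spreads when marrow is cultured. By their titles, 8 of the 12 arrays of the series belong to the heterozygotes and 4 to wild type, with 4 arrays per genotype, and each heterozygous genotype was given equal weight. Crebbp+/- and Ep300+/- mice carry 1 intact copy of the named gene, and how the alleles were made is not given in the sources used here. All mice, controls included, were C57BL/6 and 3 to 4 months old. Their marrow was plated in M5300 medium for 2 weeks, the layer was irradiated with 1500 cGy, the medium was replaced, and total RNA was hybridized to Affymetrix arrays. Nothing else separates the groups in the labels, which call the arrays of a genotype biological replicates. The comparison asks which genes differ from wild type by a like size and in the same direction whichever of the 2 coactivators has lost a copy.

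Crebbp (CBP) and Ep300 (p300) are closely related lysine acetyltransferases that act as transcriptional coactivators. CBP was first known as the partner of phosphorylated CREB, the factor that binds cAMP response elements, and both proteins also serve NF-kB, interferon-activated STAT and IRF factors, p53 and AP-1. Marrow stroma supplies haematopoietic cells with chemokines, cytokines, adhesion molecules and matrix.

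The values are log2 expression levels made with GCRMA, and differences are in log2 units, so that 1 unit is a doubling. The smallest interquartile range over the 12 arrays among the 3109 probe sets tested was 0.5001. They are thus a variable part of the chip, and a gene outside it has no value here. Array medians lay between 7.98 and 8.43, and no 2 arrays correlated above 0.964 across probe sets. Of the stromal markers, Cxcl12 lay between 13.50 and 14.92, Kitl between 10.63 and 12.52 and Foxc1 between 8.37 and 10.40 over the 12 arrays, while Lepr, a receptor of reticular stroma, ran from 4.85 to 9.89. Macrophage and endothelial transcripts were present too, with Cd14 between 10.21 and 13.70 and Cdh5 between 7.59 and 10.82. Of the granulocyte markers 0 of 14 and of the T and NK cell markers 0 of 15 are in the table, so nothing can be said about those cells. In such a mixed layer, fewer cells of a type and less RNA per cell cannot be told apart. Some arrays stand apart. NF-kB target genes were high on Crebbp+/- 3 and Ep300+/- 3, and the Y-linked transcript Eif2s3y was at 2.73 and 2.69 on Crebbp+/- 1 and 3 against 8.41 to 10.84 on the other 10 arrays, so results that moved most without these arrays are given without them as well.

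Crebbp itself was measured by 1 probe set. Its log2 levels were 8.51, 8.45, 8.52 and 8.59 on wild-type arrays 1 to 4, then 7.88, 7.67, 7.71 and 7.72 in Crebbp+/- and 8.73, 8.66, 8.48 and 8.73 in Ep300+/-. All 4 Crebbp+/- arrays lay below every other array, while the Ep300+/- arrays overlapped wild type. The pooled difference was -0.32 (SE 0.17, limma adjusted p = 0.427), made up of -0.78 in Crebbp+/- and 0.13 in Ep300+/-. Ep300 was not measured, and the Ep300+/- labels could not be checked this way.

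Pooling the heterozygotes gave 3 probe sets that rose and 0 that fell, 0.0965% of those tested (limma, adjusted p under 0.05 over all 3109). They belonged to Btg2, an antiproliferative gene that is quickly induced by growth signals and by p53, to Stk25, a serine/threonine kinase of the Ste20 family, and to an unnamed transcript, probe set 1455574_at. All 3 rose by a like size in both heterozygotes, which means here that both differences have the same sign and that the smaller is at least 0.5 of the larger. None of the 3 passed the limma test between the heterozygotes (adjusted p = 0.830 for Btg2, 0.5004 for Stk25 and 0.577 for the unnamed probe set), and the intervals below show how large a difference could have been missed.

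The promoters of both called genes that have a name are printed here with those of Cd36 and Cxcl13, a gene on whose 3 probe sets the groups do not overlap and the gene of largest pooled difference among the 20 of like size described below. Each is the 250 bases before the transcription start, 5′ to 3′ on the gene's strand, from the RefSeq promoter table of GRCm38.p6, and capitals mark matches on either strand to TGACGTCA (the cAMP response element), TGACG (its shorter form, which lies inside it), TGACTCA (an AP-1 element) or GGGCGG (a GC box).
Btg2, chr1:134079156-134079405, minus strand: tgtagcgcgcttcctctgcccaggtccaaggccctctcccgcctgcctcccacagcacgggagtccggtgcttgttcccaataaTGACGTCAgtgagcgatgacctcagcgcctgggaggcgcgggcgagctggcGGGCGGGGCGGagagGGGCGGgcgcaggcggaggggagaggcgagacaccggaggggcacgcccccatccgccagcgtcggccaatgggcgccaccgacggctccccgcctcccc
Stk25, chr1:93635728-93635977, minus strand: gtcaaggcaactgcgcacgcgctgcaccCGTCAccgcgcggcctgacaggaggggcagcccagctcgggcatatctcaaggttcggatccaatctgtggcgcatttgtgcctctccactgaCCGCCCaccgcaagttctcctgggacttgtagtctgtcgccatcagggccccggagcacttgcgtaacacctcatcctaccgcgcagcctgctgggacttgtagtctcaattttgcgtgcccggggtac
Cd36, chr5:17835897-17836146, minus strand: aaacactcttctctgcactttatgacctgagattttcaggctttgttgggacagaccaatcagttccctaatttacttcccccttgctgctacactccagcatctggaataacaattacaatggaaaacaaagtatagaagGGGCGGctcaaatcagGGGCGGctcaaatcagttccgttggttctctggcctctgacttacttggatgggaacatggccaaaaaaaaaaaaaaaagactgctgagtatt
Cxcl13, chr5:95956689-95956938, plus strand: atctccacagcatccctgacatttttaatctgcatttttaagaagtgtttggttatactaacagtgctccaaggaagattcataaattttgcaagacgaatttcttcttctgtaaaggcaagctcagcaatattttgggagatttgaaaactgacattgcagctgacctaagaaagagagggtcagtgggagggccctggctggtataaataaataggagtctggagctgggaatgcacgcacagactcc
The Btg2 window holds the whole TGACGTCA, starting 166 bases before the start, and 3 matches to GGGCGG. The Stk25 window holds TGACG 222 bases and GGGCGG 129 bases before the start, both on the opposite strand, the Cd36 window holds GGGCGG at 109 and 93 bases, and the Cxcl13 window holds none of these letters. TGACGTCA is in 1.546% of all 32851 promoters of this length and in 2.221% of the 2071 promoters of measured genes. Of the 29 windows found for 18 of the 21 genes named here (20 of like size and Btg2), 1 holds it, 5 hold TGACG (17.77% of all promoters and 24.96% of those of measured genes), 2 hold TGACTCA (4.463% and 3.863%) and 12 hold GGGCGG (32.74% and 54.08%). A match describes the letters and is neither a binding site nor a cause of a difference.

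The called Btg2 probe set stood at 5.77, 5.17, 4.72 and 4.27 in wild type. In Crebbp+/- it stood at 9.22, 10.28, 11.58 and 8.73, and in Ep300+/- at 9.43, 10.17, 11.32 and 7.19. No heterozygous array reached down to a wild-type one, and array 3 was the highest of each heterozygote. The pooled difference was 4.76 (SE 0.69, limma adjusted p = 0.0374), a 27.1-fold rise, from 4.97 in Crebbp+/- and 4.55 in Ep300+/-. Their difference of 0.42 had a 95% interval from -1.30 to 2.15. The size is uncertain at the low end, since 1.544% of all values in the table lie under 5 and wild-type arrays 3 and 4 are among them. Btg2 also has a probe set of higher mean, which does not show this. It stood at 10.07, 9.70, 10.84 and 9.63 in wild type, 10.45, 10.04, 12.57 and 9.08 in Crebbp+/- and 10.12, 11.02, 12.72 and 9.33 in Ep300+/-. Those groups overlap, with a pooled difference of 0.61 (limma adjusted p = 0.679). It was -0.053 without Crebbp+/- 3 and Ep300+/- 3, in a fit that keeps wild-type 3, the highest wild-type array at 10.84. The Btg2 rise therefore rests on 1 of its 2 probe sets.

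Stk25 was at 6.94, 6.68, 6.63 and 6.74 in wild type. The Crebbp+/- arrays gave 7.51, 7.998, 8.31 and 8.69 and the Ep300+/- arrays 8.89, 8.60, 8.16 and 8.29. Every heterozygous array was above every wild-type array, by at least the gap between 6.94 and 7.51. The pooled rise was 1.56 (SE 0.25, limma adjusted p = 0.0393), which is 2.95-fold. It came to 1.38 in Crebbp+/- and 1.74 in Ep300+/-, a difference of -0.36 (95% interval -0.97 to 0.26). Stk25 was the 1 of the 3 called probe sets with a larger value in Ep300+/-.

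The unnamed probe set 1455574_at had the tightest arrays of the 3. Wild type gave 7.497, 7.32, 7.57 and 7.44, Crebbp+/- 8.86, 8.43, 8.98 and 8.63, and Ep300+/- 8.59, 8.49, 8.55 and 8.32. It rose by 1.15 pooled (SE 0.19, limma adjusted p = 0.0393), 1.27 in Crebbp+/- and 1.03 in Ep300+/-, with a difference between them of 0.24 (95% interval -0.23 to 0.70).

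**Figure D1:**
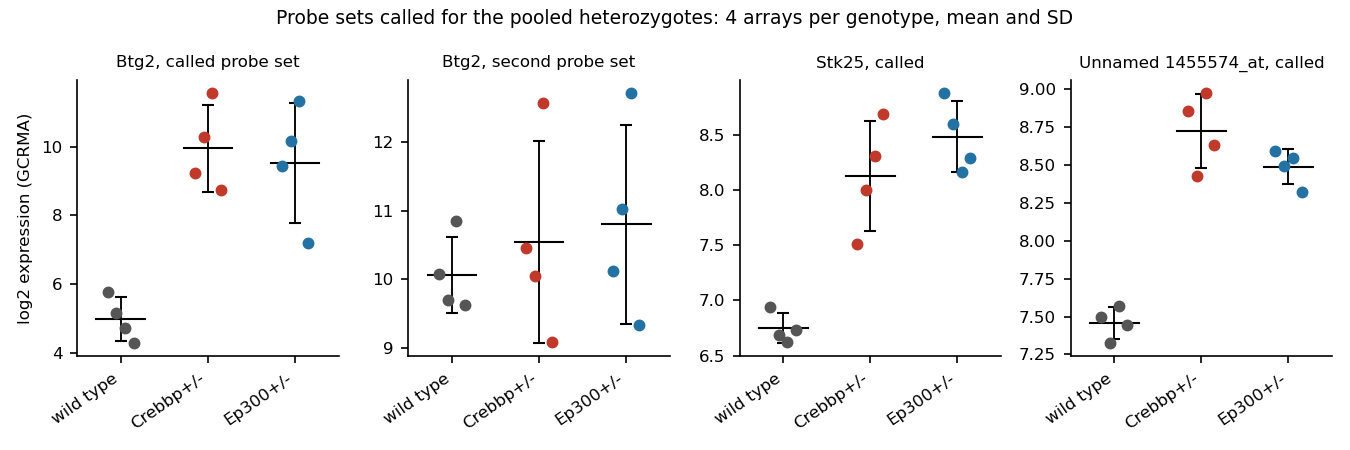
Log2 expression (GCRMA, vertical axes of differing range that do not start at 0) on each array for the 3 probe sets called for the pooled heterozygotes and the second Btg2 probe set, by genotype (horizontal axis). Points are arrays, long bars means and whiskers SD (n = 4); in the 3 called panels no heterozygous point reaches down to wild type, while the second Btg2 panel overlaps.

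The 3 calls were easily lost. Without any 1 of the 4 wild-type arrays, or without Crebbp+/- 2, Ep300+/- 1 or Ep300+/- 2, none of the 3 passed the limma threshold. Btg2 passed in 5 of the 12 fits that leave out 1 array (differences from 4.46 to 5.15), Stk25 in 3 (1.47 to 1.66) and 1455574_at in 1 (1.10 to 1.197). Without Crebbp+/- 1 and 3, the arrays of low Eif2s3y, 0 passed and the differences were 4.54, 1.67 and 1.05. The sizes thus moved little while the adjusted p-values crossed the threshold.

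Below the threshold, 408 probe sets (13.1%) had an unadjusted pooled limma p under 0.05, 243 higher (7.82%) and 165 lower (5.31%). Scaling moved that split. The median pooled difference over all probe sets was 0.18, and it became 0.017 after quantile normalization and 0.055 after median centring, where the higher and lower counts were 177 and 261, and 170 and 245. Of the 408, 158 (5.08% of all probe sets) were of like size in both heterozygotes (78 higher, 80 lower), 218 had the same sign without like size and 32 had opposite signs. The split of those of like size became 55 higher and 121 lower after quantile normalization, and 52 and 105 after median centring. Among the 408 as deposited, Crebbp+/- had the larger of 2 values of the same sign in 317 and Ep300+/- in 59. Over all probe sets, without regard to p, 933 (30.0%) were of like size. Both heterozygotes are set against the same wild-type arrays, so their differences are not independent.

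The stricter question, whether a probe set differs from wild type in both heterozygotes separately, was answered by the larger of its 2 p-values. By limma 0 probe sets passed after adjustment (smallest adjusted p = 0.240) and 37 (1.19%) had both unadjusted p-values under 0.05. Of these 23 were higher and 14 lower, counts that became 18 and 32 after quantile normalization and 15 and 22 after median centring. As deposited, 36 of the 37 were of like size. Both differences have the same SE, so asking for both p-values favours like sizes, and nothing is read from that count. Each heterozygote alone gave 192 calls (6.18%) for Crebbp+/- and 0 for Ep300+/-, where 126 (4.05%) had an unadjusted p under 0.05. Of the 192 Crebbp+/- calls, 14 were of like size in Ep300+/-, 56 had the opposite sign there, and 122 also differed between the heterozygotes by the direct test, which called 199 probe sets (6.4%). The 192 were chosen for their Crebbp+/- difference, which favours smaller values in Ep300+/-, and the direct test uses the same Crebbp+/- arrays.

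**Figure D2:**
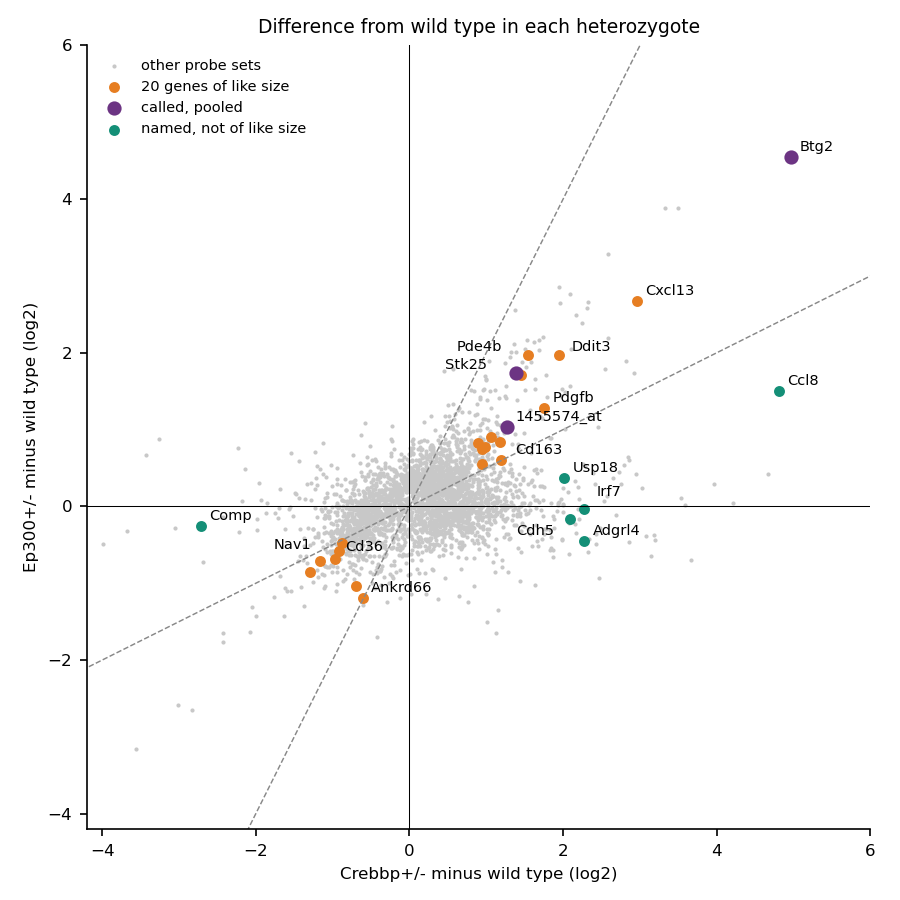
Log2 difference from wild type in Crebbp+/- (horizontal) and Ep300+/- (vertical) for all 3109 probe sets, which share the 4 wild-type arrays. Dashed lines bound the region of like size around the diagonal; the 3 called probe sets and the 20 genes of like size lie inside it, Comp, Ccl8, the interferon genes Usp18 and Irf7 and the endothelial genes Cdh5 and Adgrl4 outside.

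The genes of like size with the smallest pooled p, taken by each gene's probe set of highest mean, are described as a group of 20, of which 13 were higher and 7 lower. Of these, Stk25 was called and the other 19 were not (limma adjusted p from 0.173 to 0.312), so the values below are descriptions. In 10 of the 20 the 8 heterozygous arrays do not overlap the 4 wild-type arrays, and over all probe sets that holds for 40 (1.29%), 18 above (0.579%) and 22 below (0.708%). The 20 were chosen by p on these same arrays, so nothing is read from that count. Crebbp+/- had the larger value in 14. In each of the 20 the 95% interval of the difference between the heterozygotes holds 0, with a half-width from 0.50 to 1.95, so unlike sizes within those bounds were not detectable. The 20 were chosen for like size on these arrays, which favours such intervals. Without Crebbp+/- 3 and Ep300+/- 3 all 20 kept their sign in both heterozygotes and 16 remained of like size, and the same counts held without Crebbp+/- 1 and 3. The remaining arrays took part in choosing the 20, so these counts only describe them.

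**Figure D3:**
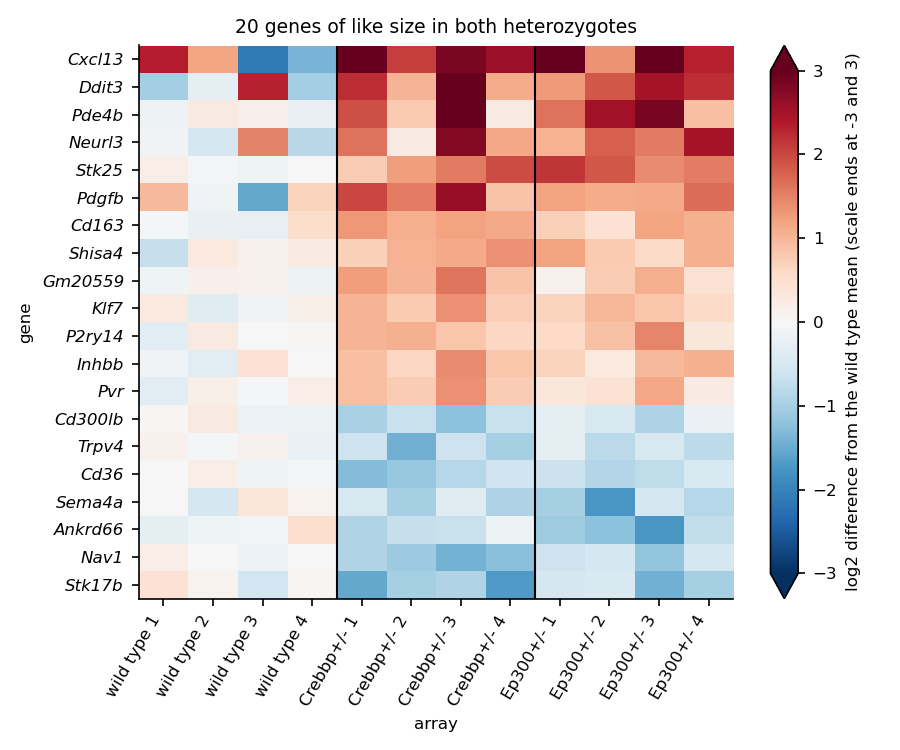
Log2 difference from the wild-type mean on each of the 12 arrays (columns) for the 20 genes of like size with the smallest pooled p (rows), red above and blue below. Genes were chosen for this pattern; Cxcl13, Ddit3 and Neurl3 also vary within wild type, while for Stk25, Nav1 and Cd36 all 8 heterozygous arrays lie on one side of wild type.

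Surface receptors of macrophages and other scavenging cells were on both sides. Cd163, the haemoglobin-haptoglobin scavenger receptor of macrophages, was at 13.04, 12.85, 12.83 and 13.61 in wild type, 14.38, 14.18, 14.28 and 14.22 in Crebbp+/- and 13.78, 13.51, 14.25 and 14.14 in Ep300+/-. Of the 8 heterozygous arrays 7 were above all wild-type arrays, with Ep300+/- 2 inside their range. The pooled difference was 1.01 (SE 0.22, limma adjusted p = 0.173), 1.18 and 0.84 in Crebbp+/- and Ep300+/-. The macrophage list, whose counts and means include Cd163 itself, did not move as one. Of its 6 measured genes (of 21) 4 were positive and 2 negative, among them Cd14 at 0.96, Marco at -0.38 and Vsig4 at -0.10. Mean list levels, each gene as its deviation from its mean over the 12 arrays, ran from -0.42 to -0.10 in wild type, -0.072 to 0.36 in Crebbp+/- and -0.18 to 0.55 in Ep300+/-. Their part in the Cd163 difference was not tested. Cd300lb, a myeloid activating receptor, was at 10.01 to 10.45 in wild type and 8.95 to 9.98 in the heterozygotes, lower in 8 of 8 arrays (pooled -0.68, SE 0.22).

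Cd36, which takes up fatty acids and oxidized lipoproteins, was below wild type on all 3 of its probe sets. Its probe set of highest mean stood at 13.99, 14.19, 13.89 and 13.95 in wild type, 12.71, 12.88, 13.14 and 13.41 in Crebbp+/- and 13.36, 13.13, 13.25 and 13.54 in Ep300+/-. The 8 heterozygous arrays lay below all 4 wild-type arrays, and so they did on both other Cd36 probe sets. The pooled differences were -0.83 (SE 0.20), -1.02 and -1.30, with limma adjusted p-values of 0.211, 0.144 and 0.0912. In Crebbp+/- they were -0.97, -1.21 and -1.69, and in Ep300+/- -0.69, -0.83 and -0.91. Without Crebbp+/- 4 the probe set of the largest difference passed the threshold and also differed between the heterozygotes. The adipocyte list, which includes Cd36, was mixed, with 5 of 11 measured genes positive and 6 negative (pooled median -0.12). Among the others were Adipoq at -0.36, Lpl at 0.24 and Pparg at 0.38.

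Ligands, receptors and adhesion molecules among the 20 are grouped here by function and not as a tested list. Cxcl13, the chemokine that draws B cells into follicles, had the largest pooled difference of the 20, 2.82 (SE 0.78), or 7.04-fold. Wild type was split, at 7.86, 6.70, 3.39 and 4.11, while Crebbp+/- gave 9.89, 7.59, 8.34 and 8.07 and Ep300+/- 9.01, 6.86, 9.02 and 7.86. Only 5 of 8 heterozygous arrays were above all wild-type arrays, and the difference ran from 2.11 to 3.60 when 1 array was left out. Wild-type arrays 3 and 4 were the lowest of all and lay under 5, as 1.544% of all values do, so the size is uncertain. The second Cxcl13 probe set had 1.83 pooled, 2.09 in Crebbp+/- and 1.56 in Ep300+/-.

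Inhbb, the subunit of activin B, was at 7.80 to 8.59 in wild type and 8.44 to 9.56 in the heterozygotes (pooled 0.85, SE 0.24). Pdgfb, a growth factor for pericytes and other mesenchymal cells, was at 3.81 to 6.32 against 6.22 to 7.97 (pooled 1.52). Wild-type 3 was lowest and lay under 4, as 0.426% of all values do, so this size is uncertain too. P2ry14, a receptor for UDP-sugars, was above wild type in 8 of 8 arrays, 8.11 to 9.22 against 7.45 to 8.02, with 0.89 in Crebbp+/- and 0.82 in Ep300+/-. Pvr, a nectin-like adhesion molecule, was also above in 8 of 8 (pooled 0.75, and 0.79 on its second probe set, where 7 of 8 were above). On the lower side were Sema4a, a semaphorin of immune cells (pooled -0.86, 6 of 8 arrays below all wild-type arrays), and Trpv4, a calcium-permeable cation channel (-0.75, 8 of 8).

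Among kinases and regulators inside the cell, Stk17b, a kinase of the death-associated family, was at 8.51 to 9.52 in wild type and 7.38 to 8.62 in the heterozygotes (pooled -1.07, SE 0.27). Pde4b, the phosphodiesterase that breaks down cAMP and is itself induced by it, was at 7.11, 7.53, 7.42 and 7.01 in wild type, 9.21, 8.04, 10.43 and 7.54 in Crebbp+/- and 8.90, 9.78, 10.12 and 8.16 in Ep300+/-. The groups did not overlap, though Crebbp+/- 4 at 7.54 lay next to wild-type 2 at 7.53. The pooled difference was 1.75 (SE 0.50), and 2.35 and 2.16 on its other probe sets. Without Crebbp+/- 1 and 3 it was 1.25, of which Crebbp+/- made 0.52 and Ep300+/- 1.97, so that this probe set was no longer of like size. The other 2 then remained so, at 1.69 and 1.89 and at 1.44 and 1.78. Without Crebbp+/- 3 and Ep300+/- 3 it was the other way round, with 0.995 and 1.68 on the first and 2.13 and 0.90, and 1.87 and 0.81, on the others. Neurl3, a ubiquitin ligase (pooled 1.58), and Ddit3, the stress transcription factor CHOP (1.96), had wild-type 3 inside the heterozygous range. For Neurl3 5 of 8 heterozygous arrays were above all wild-type arrays, and for Ddit3 2 of 8. In both genes wild-type arrays 1, 2 and 4 lay under 5, as 1.544% of all values do, so the sizes are uncertain.

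Of the other genes, Nav1, a microtubule-binding protein, was at 8.23, 8.02, 7.85 and 8.03 in wild type, 7.14, 6.94, 6.61 and 6.78 in Crebbp+/- and 7.40, 7.51, 6.84 and 7.53 in Ep300+/-. All 8 heterozygous arrays were below wild type (pooled -0.94, SE 0.21, limma adjusted p = 0.173). Klf7, a Krüppel-like transcription factor, was above in 8 of 8 arrays on both of its probe sets, by 0.88 (SE 0.21) and 0.57. Shisa4, a transmembrane protein, was also above in 8 of 8 (pooled 0.99), at 7.09 to 7.88 against 5.83 to 6.82. Gm20559 had pooled differences of 0.90 and 0.79 on its 2 probe sets. The first had 1.19 in Crebbp+/- and 0.61 in Ep300+/-, a ratio of 0.514. The second was not of like size, with rises of 2.12-fold in Crebbp+/- and 1.42-fold in Ep300+/-. Ankrd66, an ankyrin repeat gene, had -0.90, with the larger value in Ep300+/- (-1.19 against -0.61 in Crebbp+/-).

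Of these 20 genes, 7 lie on chromosome 1 (Stk25, Nav1, Klf7, Shisa4, Stk17b, Inhbb and Neurl3), as does Btg2, while 7.11% of the measured genes with a known chromosome do. Among probe sets whose arrays do not overlap, 8 of the 35 with a known chromosome are on chromosome 1, against 7.74% of all.

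Gene lists were described by their counts and medians, and no member of any of the 27 lists was called by its probe set of highest mean. The NF-kB targets and inflammatory cytokines had 16 of 19 genes measured. All 16 pooled differences were positive (62.9% of all probe sets were), 1 had an unadjusted p under 0.05, against 13.1% of all probe sets, and 13 were of like size (30.0% of all probe sets were). The median was 0.83 pooled, 0.70 in Crebbp+/- and 1.02 in Ep300+/-, against 0.18, 0.24 and 0.049 over all probe sets. Il1b, the inflammatory cytokine, was at 4.49 to 6.67 in wild type, 10.03, 7.202, 13.83 and 5.24 in Crebbp+/- and 6.98, 10.76, 13.94 and 6.18 in Ep300+/-, with a pooled difference of 3.69 (SE 1.57, limma adjusted p = 0.349). Tnf was at 7.76 to 9.03 in wild type and reached 14.38 on Crebbp+/- 3 and 14.36 on Ep300+/- 3 (pooled 2.40). The feedback inhibitors Nfkbia and Tnfaip3 had 0.80 and 1.93. In each of these 4 genes Crebbp+/- 3, Ep300+/- 3 and wild-type 3 were the highest arrays of their genotypes. Crebbp+/- 1 and Ep300+/- 2 were also above all wild-type arrays, with Il1b at 10.03 and 10.76 and Tnf at 9.80 and 12.29, while Crebbp+/- 4 lay within the wild-type range. Without Crebbp+/- 3 and Ep300+/- 3 the pooled differences of Il1b, Tnf, Nfkbia and Tnfaip3 were 2.15, 1.24, 0.42 and 0.95, and of the 4 only Il1b was of like size (1.91 and 2.39). Without Crebbp+/- 1 and 3 they were 2.26, 1.57, 0.49 and 1.16, and none was.

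Chemokines (15 of 24 measured) had all 15 pooled differences positive, 11 of like size and a median of 1.61, with 1.39 in Crebbp+/- and 1.43 in Ep300+/-. Ccl2, which recruits monocytes, had 1.61 (SE 0.66), and Cxcl2, which recruits neutrophils, 1.78, or 0.94 without Crebbp+/- 3 and Ep300+/- 3 and 1.09 without Crebbp+/- 1 and 3. Ccl8 was not of like size, at 4.81 and 1.498, and Cxcl12, the chemokine that holds stem cells in marrow, was at 0.25 and -0.25. Immediate targets of cAMP and CREB (14 of 22 measured) had 12 positive and 2 negative differences, 11 of like size and a median of 0.90 (0.71 and 1.01). Egr2 had 1.34 and Nr4a1 1.32, both transcription factors induced within minutes of a stimulus, while Fos had -0.06 and Dusp1 0.13. Without Crebbp+/- 3 and Ep300+/- 3 Egr2 had 0.82 and Nr4a1 0.65.

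These 3 lists rested on the same arrays. The NF-kB mean was 2.23 on Crebbp+/- 3 and 2.28 on Ep300+/- 3 and lay between -0.93 and 0.64 on the other 10. The chemokine mean was 1.60 and 2.05 on that pair, and the cAMP mean 1.73 and 1.91. Wild-type 3 was the highest wild-type array for NF-kB (-0.31, the others -0.93 to -0.79) and for cAMP targets (0.13, the others -0.81 to -0.67). For chemokines it was not (-1.35). The fits below keep wild-type 3. Without that pair the pooled medians were 0.28 for NF-kB, 0.74 for chemokines and 0.26 for cAMP targets, with 4, 6 and 4 genes of like size (540 of all 3109 probe sets were), and the Crebbp+/- median of the cAMP list was -0.043. Without Crebbp+/- 1 and 3 the pooled medians were 0.46, 1.02 and 0.35, with 0, 5 and 0 of like size (772 of all probe sets). The like size of the NF-kB and cAMP lists in both heterozygotes thus depends on these arrays.

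**Figure D4:**
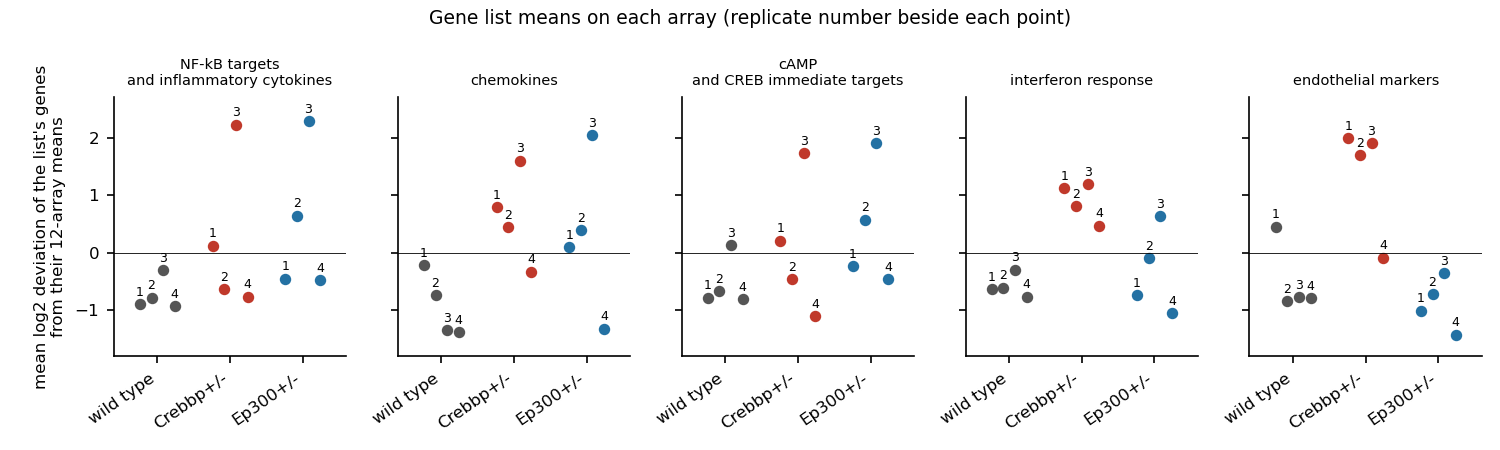
Mean of each gene list on each array (vertical axis, log2 deviation of its genes from their means over the 12 arrays) by genotype, with the replicate number beside each point. NF-kB, chemokine and cAMP lists are highest on Crebbp+/- 3 and Ep300+/- 3; interferon and endothelial lists are high on Crebbp+/- arrays, except the endothelial mean of Crebbp+/- 4, and the interferon mean of Ep300+/- 3 (0.63) is above that of Crebbp+/- 4 (0.47).

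Other lists had unlike medians in the 2 genotypes. Of the interferon response, 25 of 30 genes were measured and all 25 pooled differences were positive, 17 of them with an unadjusted p under 0.05, but 2 were of like size (Cxcl10 and Irf1). The median of 0.77 was made of 1.32 in Crebbp+/- and 0.13 in Ep300+/-, the latter at -0.0022 after quantile normalization. Ep300+/- 3 stood apart in its group, its mean over the list being 0.63 where its 3 fellow arrays ran from -1.06 to -0.094, and without it and Crebbp+/- 3 the medians were 1.24 and -0.035. Usp18, the protease for the modifier ISG15, had 2.02 and 0.37, Xaf1 1.47 and 0.34, Oasl1 2.95 and 0.42, and Irf7, the regulator of type I interferon genes, 2.27 and -0.03. For all 4 the direct test found the heterozygotes to differ (limma adjusted p = 0.0216, 0.0265, 0.0228 and 0.0116). In the p200 family 4 of 12 genes were measured. All 4 were positive in Crebbp+/- and 2 in Ep300+/-, with medians of 1.06 and 0.081, and 1 was of like size. Ifi213 had 3.08 and -0.39 and Ifi209 1.25 and -0.01, while Mndal rose 1.83-fold and 1.13-fold.

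Endothelial markers (18 of 22 measured) had opposite signs in the 2 genotypes. All 18 were positive in Crebbp+/- and 1 was in Ep300+/-, with medians of 1.92 and -0.42, and 0 were of like size. The pooled median of 0.75 describes neither. Cdh5, the adhesion molecule of endothelial junctions, had 2.09 and -0.16, Adgrl4 2.28 and -0.45, and Erg, an endothelial transcription factor, 2.53 and 0.08, and the heterozygotes differed in all 3 (limma adjusted p = 0.0153, 0.0116 and 0.0310). List means ran from -0.84 to 0.45 in wild type, -0.087 to 1.99 in Crebbp+/- and -1.43 to -0.36 in Ep300+/-, with Crebbp+/- 4 at the low end of its group. Of 6 measured pericyte and smooth muscle genes, 5 had a positive pooled difference, among them Rgs5, Rgs4 and Mcam with 2.57, 1.72 and 1.64 in Crebbp+/- and 0.13, 0.26 and 0.08 in Ep300+/-. Myh11 had 0.84 and -0.28, and Cnn1, at -0.13 and -0.14, was the 1 gene of like size.

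Lists below wild type also differed by genotype in their medians. All 14 measured genes of sterol and fatty acid synthesis (of 26) had negative pooled differences, with a median of -0.36, but -0.63 in Crebbp+/- and 0.023 in Ep300+/- (-0.12 after quantile normalization), and 0 were of like size. The cholesterol enzymes Lss, Sqle and Cyp51 had -0.94, -0.82 and -0.96 in Crebbp+/- and 0.04, -0.12 and 0.01 in Ep300+/-. Mvd, another of them, was 1.86-fold lower in Crebbp+/- and 1.22-fold lower in Ep300+/- on its probe set of highest mean. Its other probe set was of like size, at -0.86 and -0.46, with all heterozygous arrays below wild type. All 3 measured osteoblast markers were negative in both, and Pth1r, the parathyroid hormone receptor, was of like size (-0.66 and -0.38), while Alpl, alkaline phosphatase, had -1.03 and -0.46 and Ibsp, bone sialoprotein, -1.75 and -0.08. Comp, a cartilage matrix protein, came nearest to a call among genes not of like size. It was at 9.71, 9.90, 10.94 and 10.15 in wild type, 7.15, 7.26, 7.71 and 7.73 in Crebbp+/- and 9.81, 9.96, 9.68 and 10.21 in Ep300+/-. Its pooled difference of -1.49 (limma adjusted p = 0.0538) was -2.71 in Crebbp+/- and -0.26 in Ep300+/-, which differed (limma adjusted p = 0.00437).

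**Figure D5:**
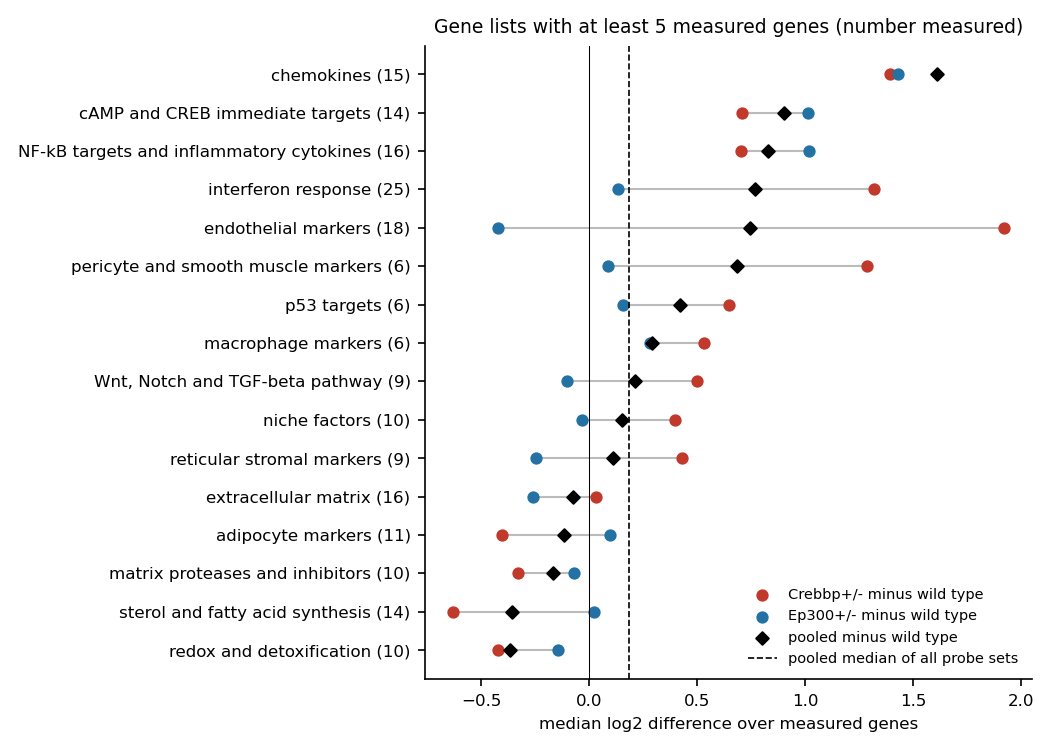
Median log2 difference from wild type over the measured genes of each list with at least 5 of them (number in brackets), for Crebbp+/- (red), Ep300+/- (blue) and both pooled (black diamonds), with the pooled median of all probe sets as a dashed line. The genotypes lie close for chemokines, NF-kB and cAMP targets and far apart for endothelial, pericyte and interferon genes.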

How the data were processed

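Gene expression was measured on 12 Affymetrix arrays of irradiated marrow stroma. The authors deposited log2 values. Per the submitters' processing notes they come from GCRMA, which in its usual form adjusts probe signals for sequence-dependent background, aligns the arrays by quantiles and sums up each probe set, so levels of different probe sets are not comparable. The version is not given in the sources used here. Of 3127 probe sets, 18 controls were left out. A platform annotation gave 2486 probe sets 1 symbol, 176 several and 447 none, which covers 1974 genes, and 2482 were matched by gene ID to GRCm38.p6.

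The values were fitted without further normalization with limma 3.58.1 in R 4.3.3 (lmFit, eBayes), with a mean per genotype over all 12 arrays. The pooled difference is the mean of Crebbp+/- and Ep300+/- minus wild type. Tests were two-sided, adjusted by Benjamini-Hochberg over all probe sets and called under 0.05. The number of arrays limits the precision, and nothing says whether replicates share a culture or animal beyond the label "biological". The procedure was tested on simulated data.

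Named genes were taken by their probe set of highest mean. They are Crebbp, the pooled calls of like size, the genes of like size with the smallest pooled p up to 20, and from each list up to 4 genes of smallest pooled p. From the lists those with an unadjusted p under 0.1 were used, a bound set later. Btg2 and 1455574_at fall outside the rule and were chosen after their values were seen, as were some list members given for contrast and the genes of the other observations, of which Ankrd1, Slco2b1, Angpt4 and Maf are given by another probe set than that of highest mean. Genes and lists were chosen with earlier results of these data known. Same-numbered arrays were to be taken as pairs if the deviations from the group means correlated above 0.1 in all 12 cases. They did in 11, and not in number 3 of Ep300+/- and wild type (0.059), so the fit with a replicate block is an alternative. Alternatives were median centring, quantile normalization, a filter on mean, other eBayes settings, array weights, a replicate block, fewer groups, a fold minimum, a Y-linked covariate, another size ratio and leaving arrays out.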

Additional observations from a re-analysis of the deposited data

Results flagged for a closer look

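Of 234 groups of 4 arrays checked, 21 had 1 array far from the other 3, with a gap to the nearest past the 95% critical value of Dixon's test, and chance alone gives this in about 1 of 20 groups. The log2 level of that array is given for each gene. On Crebbp+/- 1 this held for Cxcl13 (8.18). On Crebbp+/- 4 this held for Timp3 (12.46), Cdh5 (9.04), Erg (4.91) and Rgs5 (11.69). On Ep300+/- 3 this held for Oasl1 (6.51), Col1a2 (4.08), Adamts4 (8.42), Angptl4 (10.11), Nrarp (6.36) and Itga10 (6.51). On Ep300+/- 4 this held for Pdgfb (7.03), Col8a1 (12.26) and Rgs5 (9.09). On wild-type 1 this held for Oasl1 (4.67), Ccl8 (6.42), Nrarp (5.99) and Cdh5 (8.91). On wild-type 3 this held for Nfkbia (14.02), Tnfaip3 (9.63) and Egr2 (10.13).

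For 19 of the 78 probe sets described, the direct test of Crebbp+/- minus Ep300+/- passed (limma, adjusted over all probe sets), so the pooled value averages over unlike genotypes. The difference in log2 units was positive for Xaf1 (1.13), Usp18 (1.65), Oasl1 (2.53), Irf7 (2.30), Ifi209 (1.27), Ifi213 (3.47), Emcn (1.52), Cdh5 (2.25), Erg (2.46), Adgrl4 (2.73), Rgs4 (1.46), Mcam (1.56) and Rgs5 (2.44). It was negative for Crebbp (-0.91), Lss (-0.98), Comp (-2.45), Smoc2 (-1.90), Ibsp (-1.67) and Itga10 (-2.02).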

How the results depend on the processing

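The calls were sensitive to the processing. Pooled calls and those of like size both numbered 1 after quantile normalization, after median centring and without Crebbp+/- 3 and Ep300+/- 3, and 0 with the Y-linked covariate and without Crebbp+/- 1 and 3. A fit of 2 groups gave 1 pooled call. The filter on a mean of at least 6, a fold minimum of 1.5 and a size ratio of 0.7 left 3. With trend and robust eBayes Comp was added, making 1 pooled call that differed between the heterozygotes. Array weights (0.331 to 5.27, highest on Crebbp+/- 1) gave 426 pooled calls, 129 of like size, 301 that differed between the heterozygotes and 2 in both; the cause was not tested. Leaving out 1 array gave 0 to 5 pooled calls, 0 to 3 of like size, 0 to 1 in both and 0 to 2 that differed; the 5 came without Crebbp+/- 4. With the replicate number as a block there were 4 pooled calls (Btg2, Comp, Rgs5 and 1455574_at), 2 of like size, 1 in both and 2 that differed; Stk25 was not called (limma adjusted p = 0.0618). In that fit 10 of 16 NF-kB, 8 of 15 chemokine and 6 of 14 cAMP genes had an unadjusted p under 0.05, against 810 of all 3109 probe sets, where the fit without the block had 1, 3 and 2, against 408. No label says what a number marks, though 9 of 12 arrays correlated best with one of their own number. Of 1713 alternative values of 78 probe sets, 1611 kept direction and side of the threshold, 42 lost and 59 gained a call, and 1 changed sign. That was Btg2 on its probe set of higher mean (-0.053 without Crebbp+/- 3 and Ep300+/- 3, with wild-type 3 kept). Counts of non-overlapping probe sets, an alternative chosen after seeing the data, ran from 28 to 101, highest without Ep300+/- 4.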

Other observations

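Genes outside the 20 also had both heterozygotes on the same side of wild type, named here because both unadjusted limma p-values were under 0.05, though none passed after adjustment. Sqstm1, the autophagy receptor p62, had 1.51 in Crebbp+/- and 1.52 in Ep300+/-, and Rcan1, an inhibitor of calcineurin, 0.69 and 0.61. Ankrd1 had 1.34 and 0.81, Xrn1, an exonuclease that degrades decapped mRNA, 0.80 and 0.86, and Nhlrc2 0.67 and 0.56. Nox4, an NADPH oxidase, had 1.32 and 0.55 and was above wild type on 8 of 8 arrays, but was not of like size. On the lower side were Gstm1, a glutathione transferase (-0.69 and -0.48, below wild type on 8 of 8 arrays), Slc35c2 (-0.65 and -0.60), the organic anion transporter Slco2b1 (-0.61 and -0.68) and Angpt4, an angiopoietin (-0.66 and -0.70).

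Further genes had all 8 heterozygous arrays on one side of wild type, but not both unadjusted limma p-values under 0.05. Cd274, the checkpoint ligand PD-L1, had 2.11 in Crebbp+/- and 2.05 in Ep300+/-, Calhm6 1.40 and 1.39, Gch1, the first enzyme of tetrahydrobiopterin synthesis, 1.14 and 0.96, and the syndecan Sdc4 1.05 and 0.98. Their heterozygous arrays varied widely, so these sizes are uncertain. The SDs in Crebbp+/- and Ep300+/- were 1.92 and 2.08 for Cd274, 1.25 and 1.40 for Calhm6, 0.89 and 1.06 for Gch1 and 0.90 and 0.86 for Sdc4. Below wild type were the endocytic adaptor Dab2 (-0.97 and -0.62), the integrin activator Fermt3 (-0.82 and -0.88), the transcription factor Maf (-0.84 and -0.95) and Col1a2, a type I collagen chain (-1.42 and -1.05, or -1.19 and -0.45 without Crebbp+/- 3 and Ep300+/- 3). Of the lists not described above, niche factors had 9 of 10 measured genes positive, with a pooled median of 0.15 that became -0.057 after quantile normalization, and Il7, the lymphocyte growth factor, had 0.40 and 0.45. Extracellular matrix genes were split, with 7 of 16 positive, and 9 of 10 measured matrix proteases and inhibitors were negative, among them Timp3 at -0.63 and -0.80.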
